A study of Mus musculus with 10 samples.

Results

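Forkhead (Fox) genes encode transcription factors that bind DNA through a winged-helix forkhead domain. The set described here holds 39 of the 21887 protein-coding genes of the mouse gene table: Foxa1 to Foxa3, Foxb1, Foxb2, Foxc1, Foxc2, Foxd1 to Foxd4, Foxe1, Foxe3, Foxf1, Foxf2, Foxh1, Foxi1 to Foxi3, Foxj1 to Foxj3, Foxk1, Foxk2, Foxl1, Foxl2, Foxm1, Foxn1 to Foxn4, Foxo3, Foxo6, Foxp1, Foxp2, Foxp4, Foxq1, Foxr1 and Foxs1. Members were chosen by family, with Foxo1 left out, and not by a methylation value, though earlier results of these data were known. For each gene, every CpG cytosine with at least 5 reads in both libraries was taken within the gene span and 2 kb either side. This gave 13204 of the 6745376 cytosines in the deposited table, in 8624 CpGs.

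The assay was reduced-representation bisulfite sequencing (RRBS), in which restriction enzymes enrich CpG-rich fragments and bisulfite treatment separates methylated from unmethylated cytosines. The cells were spermatogonia from testes of male pups at postnatal day 6. All came from the LT-11B6 line, which carries an Id4-eGfp transgene on a C57BL/6 background, and all were ID4-EGFP+ at sorting. The TSPAN8-high fraction held the cells stained most strongly by an antibody to the surface protein TSPAN8, and the TSPAN8-low fraction the most weakly stained. DNA of 5 sorts was pooled per fraction (300 ng) and gave 1 library each, so pups were pooled, no error between replicates exists, and every test below compares 2 libraries, not 2 conditions.

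Forkhead factors act in body patterning, organ formation, metabolism and cell division. The FOXA proteins are pioneer factors, able to bind their sites in closed chromatin, while FOXO proteins are kept out of the nucleus when phosphorylated by AKT. Start sites rich in CpGs are usually free of methylation, whatever the activity of the gene. At many genes of developmental regulators the unmethylated stretch is known to run far past the start site, across the gene itself, and such stretches have been called methylation valleys or canyons.

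4 start sites show what the sequence and its methylation look like in these libraries. Each line gives the 250 bases before the annotated start in lower case, with the CpGs that the table lists in capitals, from RefSeq (GRCm38.p6, the mm10 build). They were chosen as the start of a long domain in a gonadal gene (Foxl2), the start of a 9255-bp domain (Foxd3), the start with the densest CpGs among the members (Foxk2) and a methylated start (Foxn1).
Foxl2 (chr9:98955357-98955606, plus strand): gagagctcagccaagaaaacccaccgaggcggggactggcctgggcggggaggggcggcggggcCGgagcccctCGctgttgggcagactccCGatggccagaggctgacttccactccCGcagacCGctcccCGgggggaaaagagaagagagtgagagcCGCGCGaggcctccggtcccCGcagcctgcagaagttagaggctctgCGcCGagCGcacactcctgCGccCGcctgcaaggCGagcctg
Foxd3 (chr4:99656049-99656298, plus strand): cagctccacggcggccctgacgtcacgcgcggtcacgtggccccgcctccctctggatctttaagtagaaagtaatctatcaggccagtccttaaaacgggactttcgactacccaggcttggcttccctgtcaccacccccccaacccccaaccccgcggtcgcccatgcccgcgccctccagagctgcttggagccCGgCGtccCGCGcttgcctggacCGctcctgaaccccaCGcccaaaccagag
Foxk2 (chr11:121259737-121259986, plus strand): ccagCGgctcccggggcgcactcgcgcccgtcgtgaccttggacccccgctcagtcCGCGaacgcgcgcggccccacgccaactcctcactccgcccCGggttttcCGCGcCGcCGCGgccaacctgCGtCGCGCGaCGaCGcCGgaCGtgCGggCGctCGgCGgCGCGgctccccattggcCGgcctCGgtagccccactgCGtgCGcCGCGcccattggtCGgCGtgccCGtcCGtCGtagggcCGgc
Foxn1 (chr11:78386609-78386858, minus strand): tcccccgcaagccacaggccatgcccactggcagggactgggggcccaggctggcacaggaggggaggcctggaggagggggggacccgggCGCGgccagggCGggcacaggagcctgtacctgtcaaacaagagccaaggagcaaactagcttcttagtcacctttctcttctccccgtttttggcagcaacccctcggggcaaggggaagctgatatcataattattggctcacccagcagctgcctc
In the Foxl2 stretch, 16 of 22 CpGs were listed, and methylated reads numbered 1 of 272 in TSPAN8-high (0.368%, with an exact 95% interval of 0.00931 to 2.03%) against 3 of 297 in TSPAN8-low (1.01%, 0.209 to 2.92%). Foxd3 had 6 of its 21 CpGs listed, with 0 of 113 methylated reads in TSPAN8-high, which allows up to 2.65%, and 0 of 114 in TSPAN8-low, which allows up to 2.63%. Of the 48 CpGs before the Foxk2 start, 35 were listed, at 0.201% (0.0243 to 0.723%) and 0.317% (0.0654 to 0.923%). The 3 listed CpGs, of 7, before the Foxn1 start were at 94.3% in TSPAN8-high (80.8 to 99.3%, 35 reads) and 86.8% in TSPAN8-low (71.9 to 95.6%, 38 reads). The first 3 starts were therefore nearly free of methylation in both libraries and the Foxn1 start was methylated in both. These intervals and limits cover counting error only. Reads were summed over CpGs and 1 read counts at every CpG it spans, so they are narrower than they should be.

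Depth over the members was even between the libraries. The 13204 cytosines carried 167073 reads (TSPAN8-high) and 165791 reads (TSPAN8-low), with a median of 10 reads each, the same as over the whole table. Members had between 17 listed CpGs (Foxi1) and 1582 (Foxp1), with a median of 119, and the median reads per cytosine of a member lay between 8 and 14. All listed cytosines together averaged 74.3% (TSPAN8-high) and 74.4% (TSPAN8-low). The labelled cell type could be checked only by methylation, since the table holds no expression values: 8 of 8 germ cell genes and 8 of 8 maternally imprinted genes, whose starts are unmethylated in the male germ line, had an unmethylated domain. As 79.6% of all measured genes had one, and 85.9% of those over 10 kb, these counts lie near the background and say little about cell identity. Of the markers of other testis cells, 4 of 5 Sertoli, 1 of 4 Leydig, 3 of 3 peritubular myoid, 2 of 3 endothelial and 2 of 3 leukocyte genes had one. Any part of other cell types in the levels below was not tested.

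The first question was how far unmethylated DNA extends at each forkhead gene. An unmethylated domain was called, on the reads of both libraries together, where at least 5 CpGs followed each other at most 1000 bp apart with levels below 20%, allowing single CpGs at or above 20% inside. 38 of the 39 members had such a domain, all but Foxi1, where 79.6% of the 19763 protein-coding genes with at least 5 listed CpGs did. 18 members had 1 domain, 17 had 2, and 3 had more (Foxo6 with 3, Foxa3 with 4 and Foxp4 with 5), so 20 had several, against 25% of all genes. The 64 domains had a median length of 1820 bp, against 946 bp over the 31835 domains of the genome, and no domain was shared by 2 members. Summed within the gene span and its 2-kb flanks, the extent of unmethylated DNA had a median of 3816 bp over the members and of 1409 bp over all genes.

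A domain of at least 5 kb lay at 9 members, Foxa1, Foxd3, Foxb2, Foxc1, Foxl2, Foxc2, Foxp2, Foxd4 and Foxl1, against 1.21% of all genes. Their full lengths ran from 5136 bp at Foxl1 to 9601 bp at Foxa1. The members nearest below the limit were Foxb1 with 4986 bp and Foxo3 with 4911 bp. The longest domain of the genome measured 13121 bp. The count fell to 5 (Foxa1, Foxb2, Foxd3, Foxd4 and Foxp2) with a level limit of 10%, and to 0 when at least 20 reads were required at each cytosine, which leaves fewer listed CpGs. At least 80% of the gene span was unmethylated at 12 members, against 1.52% of all genes. It was 100% at Foxb2, Foxc1, Foxd3, Foxd4, Foxe1 and Foxl2, then 99.3% at Foxc2, 95.7% at Foxq1, 94.1% at Foxd1, 88.8% at Foxa1, 88.1% at Foxe3 and 80.4% at Foxs1. Unmethylated domains thus covered all or most of each of these gene spans. Coverage of a short gene does not need a long domain. That of Foxs1 measured 1054 bp, below the median of 1301 bp for the longest domain per gene over all protein-coding genes. The count covered to 80% was 6 with neighbours at most 500 bp apart and 2 with at least 20 reads.

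**Figure D1:**
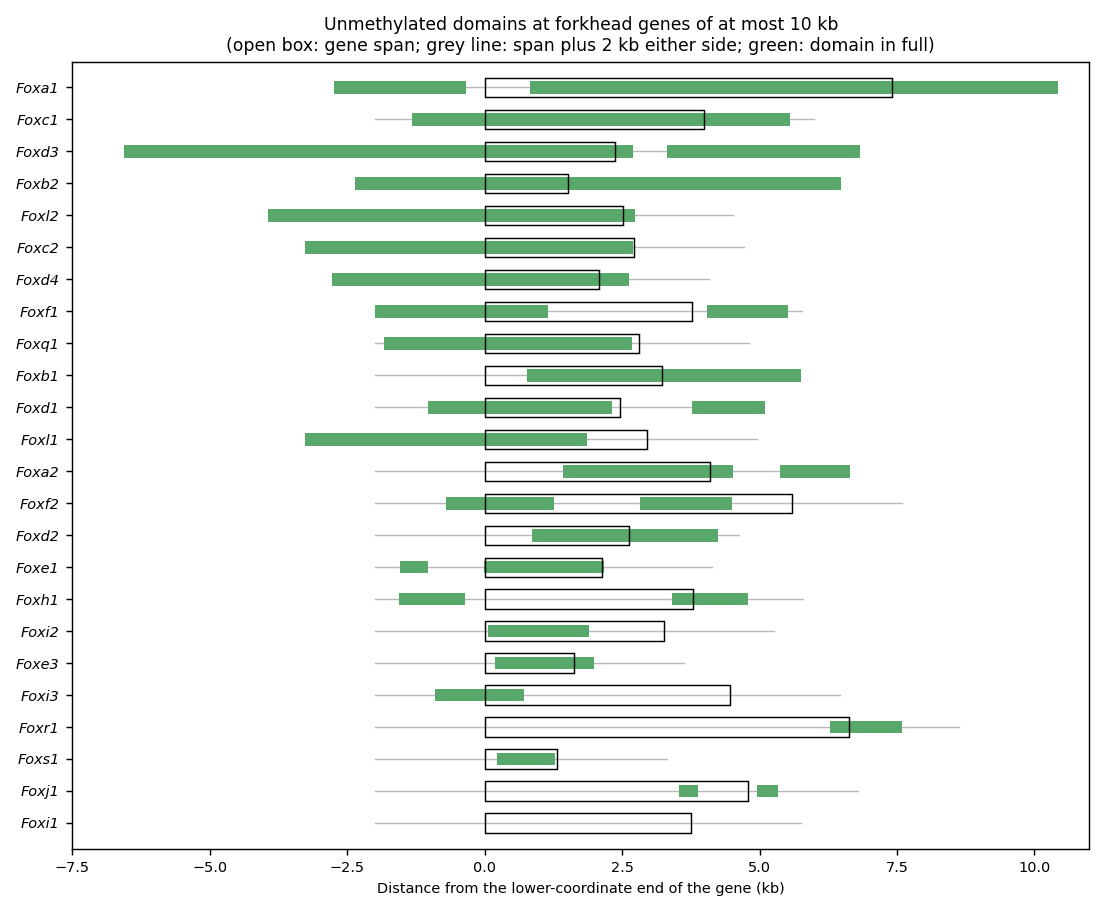
Unmethylated domains (green bars) of the members with a span of at most 10 kb, along the distance in kb from the lower-coordinate end of the gene, with the gene span as an open box and the 2-kb flanks as a grey line. At Foxb2, Foxc1, Foxd3, Foxd4, Foxe1 and Foxl2 the green bars cover the whole box, and at Foxi1 no domain is drawn.

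Many forkhead genes are short, and a short gene is covered more easily. The 24 members of at most 10 kb had a median extent of 3842 bp, against 996 bp over all genes of that size. Of them 8 had a domain of at least 5 kb, against 1.8% of the 6109 genes of that size, and all 12 members with 80% of their span covered were among them, against 4.91%. The 15 members over 10 kb had a median extent of 3755 bp, against 1565 bp over all longer genes. In these longer genes 1 member, Foxp2, reached 5 kb, against 0.952% of the 13654 genes over 10 kb. None was covered to 80%, against 0.00732%, and 11 had several separate domains, against 29.4%. Among 15 housekeeping genes the median was 2105 bp, and among 13 genes of the PI3K-AKT-FOXO pathway, which relays growth factor signals to FOXO proteins, it was 2512 bp, with 0 domains of 5 kb in either list. Among the short marker lists, 2 of the 5 Sertoli genes had a domain of at least 5 kb. The lists were chosen by function, and the differences between lists were not tested.

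**Figure D2:**
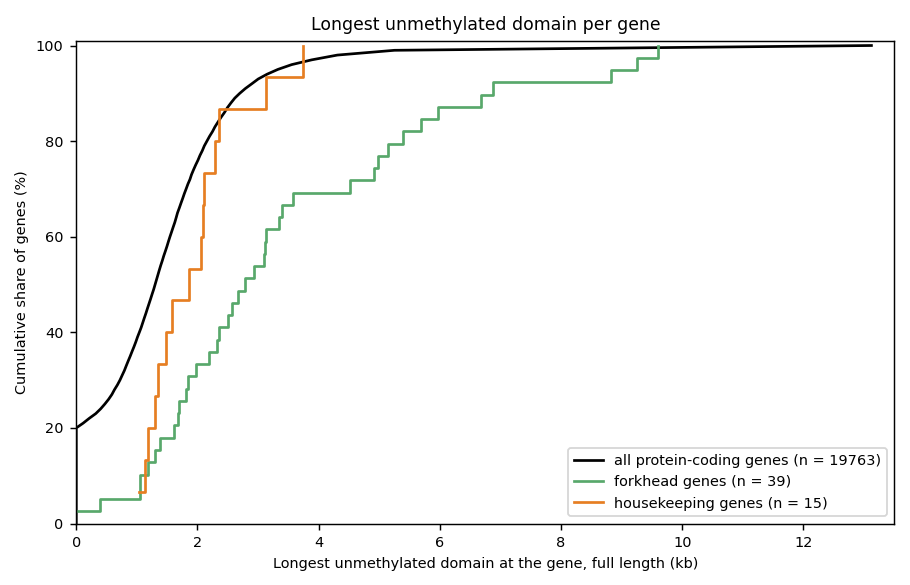
Cumulative share of genes (%) against the length in kb of the longest unmethylated domain at the gene, for all protein-coding genes, the forkhead genes and 15 housekeeping genes. The forkhead curve lies to the right of that of all genes and reaches past 5 kb for 9 of 39 members.

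The endoderm genes had the median extent that was highest among the groups by role, 5966 bp. Foxa1, a pioneer factor of gut, liver and prostate, was unmethylated over 10232 bp in 2 domains of 2394 and 9601 bp. The longer of them, chr12:57541455-57551055, had 1.20% of its reads methylated in the TSPAN8-high library (0.855 to 1.64%) and 1.43% in the TSPAN8-low library (1.05 to 1.92%). Foxa2, which patterns node, notochord and floor plate, had 3816 bp in 2 domains at 1.25% and 0.780% over the longer one. Foxa3, a liver factor, had 5966 bp in 4 domains. Of these, 3 were below 3% in both libraries, and the one of 1197 bp at chr7:19020085-19021281, inside the gene, stood at 9.71% (5.76 to 15.1%) and 19.5% (13.8 to 26.3%).

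The 8 genes of mesoderm and mesenchyme had a median extent of 3955 bp, 3 of them with a domain of at least 5 kb and 4 covered to 80%. Foxc1, needed for the anterior eye and the skull, lay within a single domain of 6873 bp (chr13:31805331-31812203) at 2.80% in the TSPAN8-high and 2.67% in the TSPAN8-low library. Foxc2, a regulator of lymphatic vessels, had 5974 bp at chr8:121112903-121118876, at 1.01% and 1.28%. Foxl1, a marker of the mesenchyme under the gut epithelium, had 5136 bp at chr8:121124416-121129551, at 2.62% and 3.16%. Pooled over the domain, these 3 genes thus had low levels in each library, although single CpGs at or above 20% interrupted the domains, 3 at Foxc1, 1 at Foxc2 and 3 at Foxl1. The other 5, Foxf1, Foxf2, Foxd1, Foxd2 and Foxs1, had extents from 1054 bp (Foxs1) to 4602 bp (Foxf1).

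The 12 neural, ectodermal and sensory genes had a median extent of 2300 bp, with 3 domains of at least 5 kb and 6 genes covered to 80%. Foxd3, a factor of the neural crest and of pluripotent cells, had the domain of 9255 bp at chr4:99649747-99659001, with 1.52% methylation in TSPAN8-high against 1.99% in TSPAN8-low. Foxb2, expressed in the developing brain, had 8828 bp at chr19:16869964-16878791, at 1.68% and 1.30%, and no part of its window lay outside the domain. Foxd4 had 5396 bp at 1.30% and 0.832%, and Foxq1, known for its part in hair, had 4509 bp at 1.77% and 1.55%. All 4 stood below 2% in each library over several kb.

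Foxi1 and Foxn1 stood apart in this group. Foxi1, a regulator of the inner ear and of acid-secreting kidney cells, had no domain, and its window averaged 85.7% (TSPAN8-high) and 84.3% (TSPAN8-low). Only 3 CpGs in 46 bp, 228 to 272 bp downstream of its start, were low. Read counts summed over these 3 gave 0 of 36 methylated for TSPAN8-high, a limit of 8.33%, and 1 of 30 for TSPAN8-low. The TSPAN8-high library covered each of the 3 with 12 reads, and the TSPAN8-low library with 10. A read of 50 bp can span all 3, so the same reads may be counted 3 times, and the limit is then too low. The other 14 CpGs were at 85.7% or more in TSPAN8-high and 83.3% or more in TSPAN8-low. Foxn1, the master regulator of thymic epithelium, had a methylated start and 2 domains, of 1049 and 865 bp, within the gene near its far end, the far edges of which lay 28078 and 26756 bp downstream of the start. Its window averaged 65.5% and 64.3%. In both genes the annotated start lay outside any domain, although no CpG was listed right at the Foxi1 start.

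**Figure D3:**
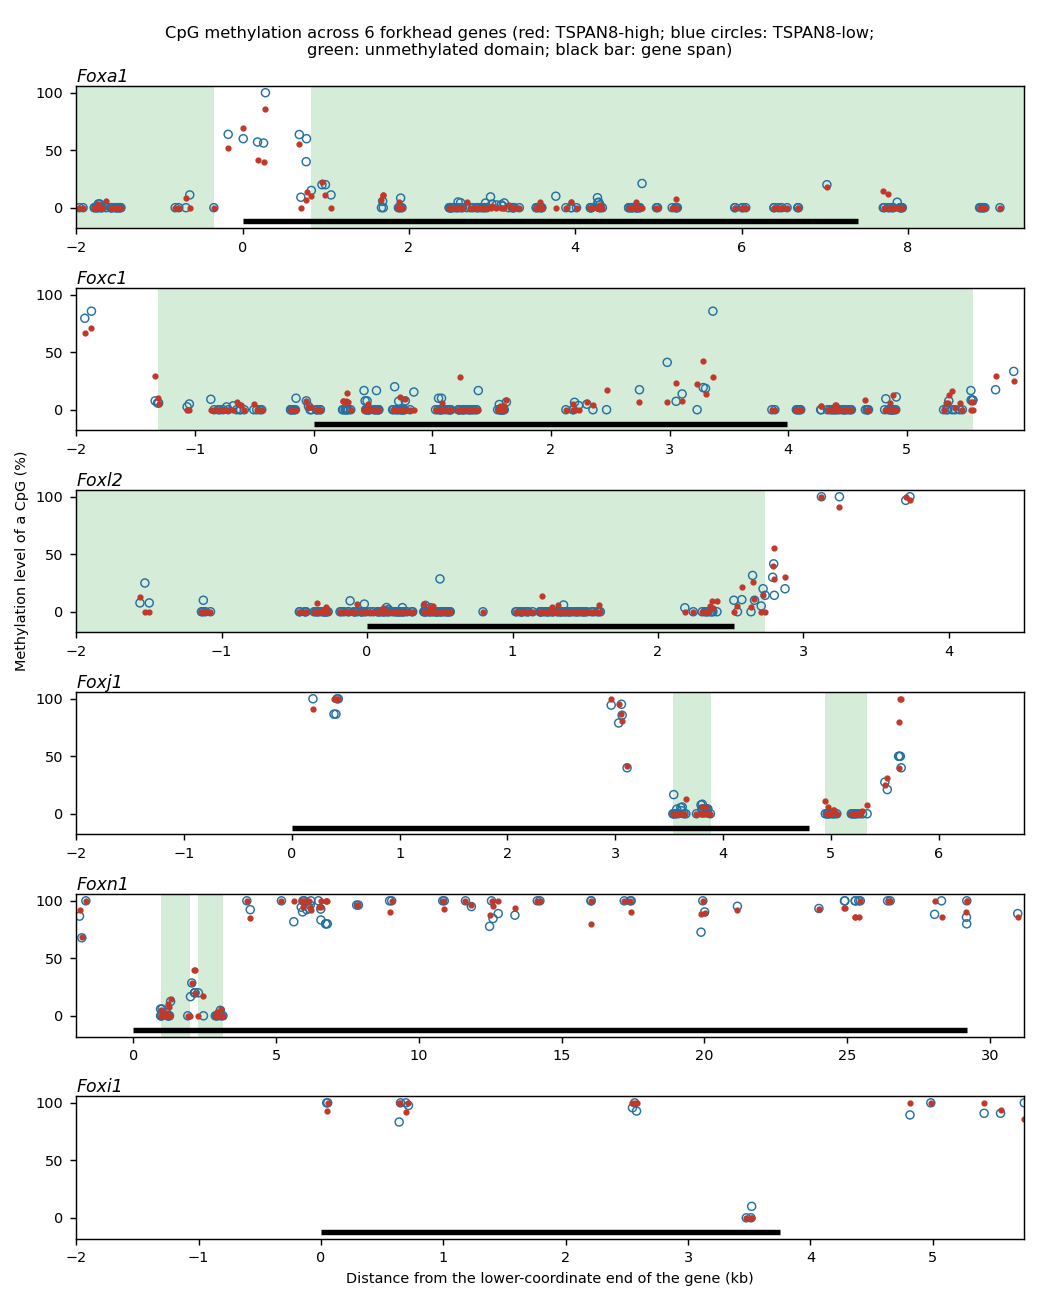
Methylation level (%) of each listed CpG in TSPAN8-high (red) and TSPAN8-low (blue circles) against the distance in kb from the lower-coordinate end of 6 forkhead genes, with domains in green and the gene span as a black bar. Apart from single CpGs, Foxa1, Foxc1 and Foxl2 are low over several kb, Foxj1 in short stretches, Foxn1 near one end and Foxi1 at 3 CpGs.

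The 4 genes of gonad, cilia, early embryo and germ cell had a median extent of 1934.5 bp. Foxl2, which maintains granulosa cells of the ovary, had a domain of 6678 bp at chr9:98951668-98958345 that covered the whole gene, at 1.27% in TSPAN8-high (0.970 to 1.64%) and 1.05% in TSPAN8-low (0.777 to 1.39%). Foxr1, known from germ cells, had 1300 bp in a window at 69.7% and 67.2%. Foxj1, required for motile cilia, had 739 bp in 2 domains, the shortest extent among the 38 members with a domain. Foxh1, a partner of SMAD proteins in Nodal signalling, had 2569 bp in 2 domains. Foxl2 was the only gene of the 4 with a domain of at least 5 kb.

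The 12 broadly expressed or other genes had a median extent of 3970.5 bp, and 9 of them had several domains. Foxo3, which holds ovarian follicles and stem cells in a resting state, had 5545 bp, most of it in a domain of 4911 bp at chr10:42273699-42278609, at 0.239% (0.0961 to 0.492%) and 0.399% (0.192 to 0.733%). Foxo6 had 5379 bp in 3 domains, Foxn3 4698 bp in 2 and Foxp4 4649 bp in 5. Foxp2, known for its part in speech and song, had a domain of 5695 bp at chr6:14897452-14903146, at 0.636% and 0.879%. The rest of these long genes was methylated: levels outside domains were 95.1% and 95.7% at Foxp1, 95.3% and 95.4% at Foxn3, and 92.0% and 92.4% at Foxp2. The whole window, domains included, averaged 90.1% and 90.6% at Foxp1, 87.1% and 87.2% at Foxn3, and 85.9% and 86.3% at Foxp2. Foxp1, Foxn3, Foxp2, Foxi1, Foxr1 and Foxn1 were the 6 members with the highest window levels. Window levels were below 20% in both libraries at 21 members and above 60% in both at 9.

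The domains at forkhead genes held little methylation. 48 of the 64 had no interrupting CpG, and 55 were below 5% in both libraries. The shares over all domains are not given here, so these 2 counts only describe the member domains. The domains' median methylation was 1.46% (TSPAN8-high) and 1.29% (TSPAN8-low), against 2.26% and 2.11% over all domains of the genome. A methylated CpG marked both edges of 29 domains, while at 28 domains 1 edge, and at 7 both, were set by a gap of more than 1000 bp without a listed CpG. The true extent at these edges was therefore not measured. The domains of at least 5 kb also rest on unlisted stretches: their largest gap between listed CpGs was 501 to 934 bp, with a median of 825 bp, so at most 500 bp between neighbours left 1 member, Foxc2, with 5 kb. 52 domains overlapped the gene span and 12 lay outside it in the flanks. Another protein-coding gene overlapped 8 domains and a long non-coding RNA gene 8, among them Fendrr at Foxf1 and Foxl2os at Foxl2.

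RefSeq start sites were used for 25 members, 29 starts in all. Those of Foxb1, Foxc2, Foxe1, Foxf1, Foxh1, Foxj1, Foxk1, Foxl1, Foxm1, Foxn2, Foxo6, Foxp2, Foxq1 and Foxs1 were not analysed here. 24 of the 29 lay inside a domain, against 43.2% of all annotated starts, and the 5 others belonged to Foxi1, Foxi2, Foxn1, Foxn3 and Foxp1. Only 21 of the 29 had a listed CpG in the 250 bases before and 50 after the start. Those of Foxi1, Foxi2 and Foxn3 had none, so methylation at these starts was not measured. The Foxi2 domain began 56 bp downstream of its start. The Foxn3 start used lies within the gene, and a domain covers the upper gene end. The ratio of observed to expected CpGs, in the 250 bases before and 50 after the start, had a median of 0.763 for the starts in domains (0.345 to 1.28) and was 0.198 to 0.294 for the 5 outside. Over all annotated starts the medians were 0.774 inside and 0.202 outside domains. Of the 642 CpGs in the member sequences, 246 (38.3%) were listed. Foxp1, a regulator of lymphocytes, heart and neurons, had starts of both kinds. Its starts at positions 99520993 and 99028298 of chromosome 6 lay in domains, and that at 99266515 was at 70.4% (49.8 to 86.3%, 27 reads) and 73.9% (51.6 to 89.8%, 23 reads).

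The domains extended to both sides of the start sites. For the 22 domains with 1 or more member starts inside, the median reach was 1087.5 bp upstream and 1654.5 bp downstream, and 11 reached further in each direction. Members that neighbour each other kept separate domains. Foxf1, Foxc2 and Foxl1 lie on chromosome 8 within 50259 bp, of which 6 domains, 4 of them at the members, took 33.0%. Foxq1, Foxf2 and Foxc1 lie on chromosome 13 within 256466 bp, of which 11 domains took 9.54%. Foxd2 and Foxe3 lie on chromosome 4 within 23788 bp, of which 3 domains took 27.2%. Methylated or unlisted DNA thus separated the domains within each of these 3 clusters.

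The second question was whether the extent of the domains differed between TSPAN8-high and TSPAN8-low cells. Called in each library alone, the extent, cut at the 2-kb flanks, was the same at 16 members. It was longer in TSPAN8-high at 11 and longer in TSPAN8-low at 12. Of all genes, 57.5% had equal extents, 21.3% were longer in TSPAN8-high and 21.2% in TSPAN8-low. The extents of the members summed to 141286 bp in TSPAN8-high and 140134 bp in TSPAN8-low, and 31 members differed by at most 500 bp. Among the members with long domains, Foxa1 had 10358 and 9995 bp, Foxc1 6678 and 7084 bp, Foxd3 5537 and 5758 bp, and Foxc2 4730 and 4101 bp, in TSPAN8-high and TSPAN8-low. Foxd4 had 4597 and 4625 bp, Foxo6 5042 and 5191 bp, and Foxp4 4649 and 4667 bp. Foxb2 (5515 bp), Foxl2 (4739 bp), Foxo3 and Foxn3 had the same extent in both. The Foxb2 domain filled its whole window, so a difference beyond the 2-kb flanks could not show. In full, the longest domain measured 8828 bp in TSPAN8-high and 8925 bp in TSPAN8-low at Foxb2, and 6470 and 6678 bp at Foxl2. It was equal at Foxo3 (4911 bp) and Foxn3 (2675 bp). Of the 9 domains of at least 5 kb, 8 kept that length when called in TSPAN8-high alone and 7 in TSPAN8-low alone. The longest domain measured 4423 bp at Foxc1 in TSPAN8-high alone, and 4101 bp at Foxc2 and 2007 bp at Foxl1 in TSPAN8-low alone.

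**Figure D4:**
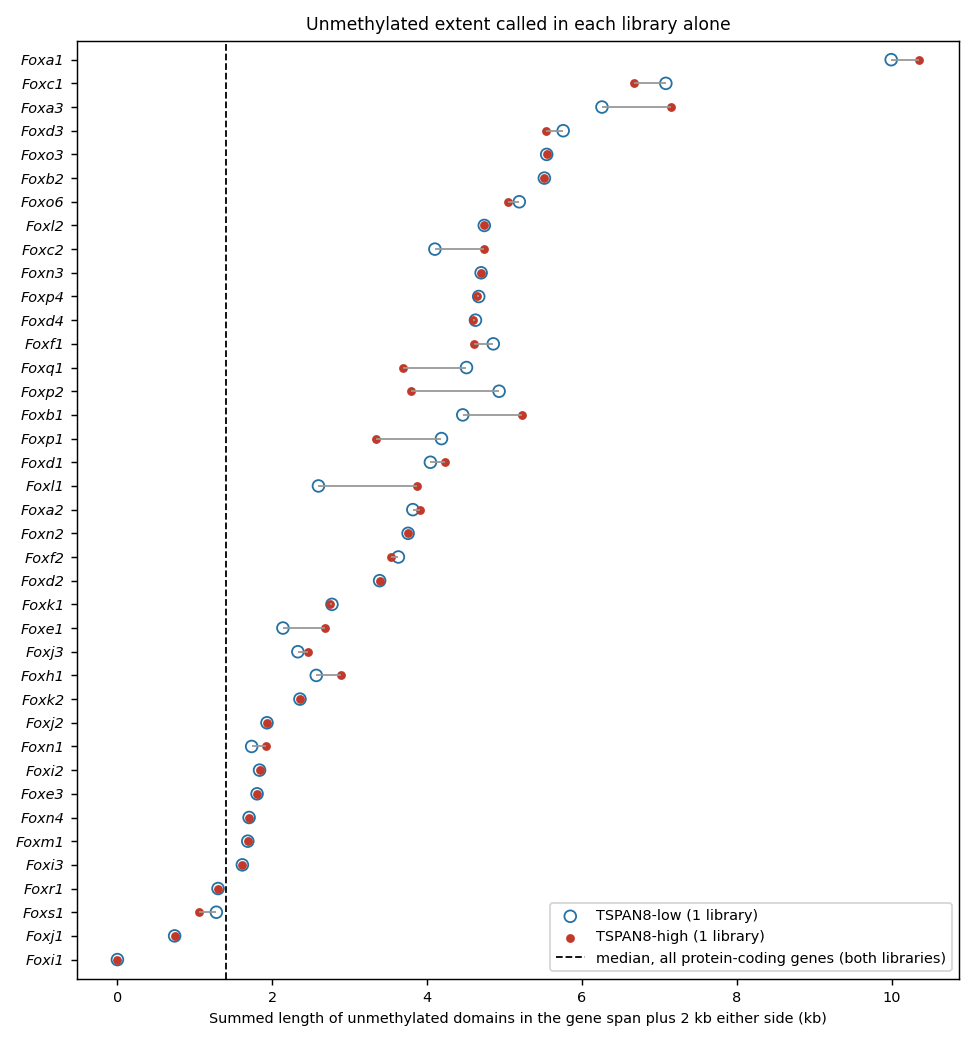
Summed length of unmethylated domains (kb) in the gene span and 2 kb either side for each of the 39 members, called in TSPAN8-high (filled) and TSPAN8-low (open) alone, with the median of all protein-coding genes dashed. The 2 symbols coincide at 16 members and lie within 500 bp at 31.

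At the 5 members with the largest differences in extent, few CpGs lay in a domain of 1 library alone. Foxl1 was 1270 bp longer in TSPAN8-high, where 3 CpGs with 9 of 22 methylated reads in TSPAN8-high and 14 of 30 in TSPAN8-low divided the domain in TSPAN8-low alone. Foxp2 had 3798 bp in TSPAN8-high and 4930 bp in TSPAN8-low, by 8 CpGs at 22.8% and 14.1%, which did not lie together. Of these, 7 formed a separate domain of 665 bp. The other extended the longest domain from 5695 bp in TSPAN8-high to 6162 bp in TSPAN8-low. Foxa3 had 7155 bp in TSPAN8-high and 6259 bp in TSPAN8-low, with 7 CpGs at 9.30% and 22.5% on one side and 2 CpGs at 33.3% and 11.9% on the other. Foxp1 had 3339 and 4186 bp, by 8 CpGs at its upstream start with 16 of 51 methylated reads in TSPAN8-high (31.4%, 19.1 to 45.9%) and 4 of 140 in TSPAN8-low (2.86%, 0.784 to 7.15%). Foxq1 had 3694 and 4509 bp, by 4 CpGs at 27.2% and 21.6%. The CpGs of a gene were pooled wherever they lay, not always as 1 stretch. They were picked by their difference, so no test is given for them.

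Methylation inside the domains was nearly equal. The 5724 cytosines inside had a mean of 1.41% (TSPAN8-high) and 1.42% (TSPAN8-low), which differed by -0.00906 percentage points, high minus low (95% interval of a jackknife over genes, -0.186 to 0.168). The 7480 cytosines outside averaged 92.8% and 93.2%, a difference of -0.397 (-0.714 to -0.0802). Over the whole table the levels were 2.26% and 2.14% inside domains and 90.7% and 90.9% outside. The jackknife covers spread between genes, not between replicates. Domains were called on the reads of both libraries together. A CpG highly methylated in 1 library alone was thus mostly kept out, and near-equal levels inside are partly built in. This also limits the tests of domains below.

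Of the 64 domains, 33 were higher and 31 lower in TSPAN8-high. By two-sided Fisher's exact test on pooled reads with Benjamini-Hochberg adjustment over all domains of the genome, 1 was called at an adjusted p below 0.05, against 3.86% of all domains (2.15% called higher in TSPAN8-high). 10 of the 64 had an unadjusted p below 0.05, against 16.9% of all domains. Since the same read counts at every CpG it spans, these p values are smaller than they should be.

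The called domain was that of 390 bp at chr11:116335653-116336042, whose upper edge lay 543 bp beyond the upper end of Foxj1. Its 18 CpGs had 11 of 678 methylated reads in TSPAN8-high (1.62%, 0.813 to 2.88%) and 0 of 578 in TSPAN8-low, which allows up to 0.519%, at an adjusted p of 0.0398 by Fisher's exact test. The difference was 1.62 percentage points (95% Newcombe interval 0.650 to 2.88), and both levels were low. The other Foxj1 domain, of 349 bp, differed the opposite way, with 4 of 475 reads (0.842%) against 22 of 622 (3.54%) and an adjusted p of 0.0779 by Fisher's exact test. With gaps of up to 2000 bp the Foxj1 domains merged and the sign turned, to -0.53 percentage points with an adjusted p of 0.720 by Fisher's exact test, and with 1 CpG kept per 100 bp the adjusted p of the called domain was 0.967 in that test. The largest differences by size were not called: the domain inside Foxa3 had 9.71% in TSPAN8-high and 19.5% in TSPAN8-low, with an adjusted p of 0.149 by Fisher's exact test. The shorter Foxp2 domain, 665 bp, stood at 22.1% against 14.0% (adjusted p = 0.266, Fisher's exact test).

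**Figure D5:**
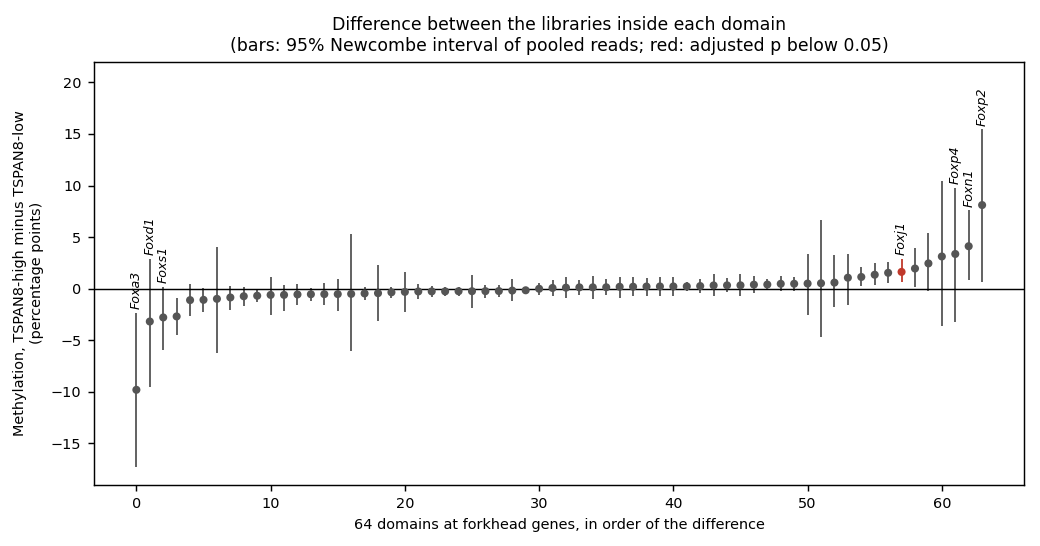
Difference in methylation, TSPAN8-high minus TSPAN8-low in percentage points, for each of the 64 domains at forkhead genes, with 95% Newcombe intervals that cover counting error only. Most points lie close to 0, and the extremes are the 1197-bp domain of Foxa3 below 0 and the 665-bp domain of Foxp2 above it.

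Edges with enough listed CpGs beyond them, and single cytosines, were tested as well, since a shift of a domain's border would show there. Of the 44 shores, the 1 kb beyond a domain edge with at least 3 listed CpGs, 0 were called by two-sided Fisher's exact test at an adjusted p below 0.05 and 10 percentage points, against 1.33% of all shores. 9 of the 44 had an unadjusted p below 0.05 in that test, against 12.2% of all shores. The smallest adjusted p was 0.0741 (Fisher's exact test), at a shore of Foxd1, a gene of kidney stroma, with 69.4% in TSPAN8-high and 86.8% in TSPAN8-low. Of the 13204 cytosines, 0 were called by Fisher's exact test at 20 percentage points, against 0.00111% of all cytosines. 127 of them (0.962%) had an unadjusted p below 0.05, against 1.46% of all cytosines, and the smallest adjusted p was 0.189 (Fisher's exact test). The median of 10 reads per cytosine limits what a test of single cytosines can detect.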

How the data were processed

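RRBS was made from DNA cut with BfaI, MseI and MspI and sequenced in paired reads of 50 bp, per the labels' protocols. The authors deposited 1 table with a line per CpG cytosine. Per the file headers, its methylation level is a fraction of reads, its coverage a read count (none below 5 in either library), its difference column (unit other) the level of TSPAN8-high minus TSPAN8-low. The deposited p-value equalled a two-sided Fisher's exact test on the reads, within a relative tolerance of 0.001, at 94.7% of member cytosines and was not used further. Bowtie, SICER and the builds mm9 and mm10 stand in the submitters' processing notes with no role, and the RRBS aligner is not given in the sources used here. All 151995 listed CpGs inside RefSeq promoter sequences fell on a CG of GRCm38.p6, so mm10 gene coordinates were used. The 8 chromatin samples of the 10 in the series were not analysed here.

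Methylated reads were level times coverage, rounded, and both strands of a CpG were merged. Domains started and ended with a CpG below 20%, held at least 5 CpGs and no 2 in a row at or above 20%. They were called over the whole table, with neighbours at most 1000 bp apart. Intervals of single shares are exact Clopper-Pearson, those of differences Newcombe, and a count of 0 was given the limit of 3 counts. Reads carry no molecular identifiers, so these cover counting error only. Where reads were summed over CpGs, 1 read can count more than once, and the intervals and limits are too narrow. Values were given for the 12 members with the longest extent, those without a domain, the 6 with the highest window level, the 5 with the largest difference in extent, and every called domain or shore. Other members were named by role after their values were seen. A planned comparison list is not reported here. Members and lists were chosen with earlier results of these data known. Alternatives varied read and level limits, gaps, interruptions, CpG minimum, flanks, shore width, thinning and size of difference. The tests were checked on simulated data. Python 3.11.15, numpy 2.4.6, pandas 2.3.3, scipy 1.17.1, numba 0.67.0 and matplotlib 3.10.9 were used.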

Additional observations from a re-analysis of the deposited data

How the results depend on the processing

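A domain was found at 38 members under 10 of 11 alternatives and at 26 with at least 20 reads in both libraries. With at least 20 reads the median extent was 520 bp, 0 members had a domain of 5 kb, 2 were covered to 80%, 0 domains were called and the difference inside domains was 0.259 percentage points. With at least 10 reads 2 domains were called, at Foxd2 and Foxj1, and 6 of the 9 members with a 5-kb domain were kept and 1 was gained. A level limit of 10% left 5 members with a domain of 5 kb and called 1 shore, at Foxa1 (27.2% against 48.7%), and a limit of 30% called 0 domains. Neighbours at most 500 bp apart left 1 member with a domain of 5 kb and 6 covered to 80%, and 2000 bp called 0 domains. With 1 CpG kept per 100 bp, or a difference of at least 2 or 5 percentage points, 0 domains were called. Shores of 2 kb gave 2 calls, at Foxr1 and Foxb1. Domains from TSPAN8-high alone gave a called shore of 6 CpGs at Foxp1 (33.3% against 3.08%), and domains from TSPAN8-low alone that at Foxa1. In both cases the reads of 1 library set the domain edge and were then compared, so no test is given for these shores. Flanks of 5 kb added a called domain at Foxd2 (0.679% against 3.89%, adjusted p = 0.0342, Fisher's exact test). No member cytosine was called under 3 alternatives. Fewer listed CpGs remain at higher read limits, so extents shorten by construction. No paired analysis was possible because each fraction has 1 library and the labels give no replicate numbers.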
